A study of Rattus norvegicus with 24 samples.

Results

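The erythroid transcripts of the table were taken as every row whose symbol begins with Hba or Hbb, plus Alas2 and Slc4a1. This rule, which uses no measured value, found 6 of the 21067 genes listed. They are 2 rows that share the symbol Hba-a2, 1 row each for Hba-a3 and Hbb, Alas2 and Slc4a1. The RNA came from a thigh muscle, the quadriceps femoris, of Sprague-Dawley rats, and 6 libraries were sequenced in each of 4 groups (1 library per rat, 3 males and 3 females a group, sex not given per library). The rats were 6 weeks old when obtained, and all of them, controls included, first went through feeding and treadmill habituation. The control group was then fed normally without training, and the treadmill group trained for 7 weeks and ran to exhaustion. Catgut group 1 received absorbable threads at a set of acupoints beside the same training, and catgut group 2 received them at these acupoints plus Fei Shu. Each library had 45945938 to 78278080 counts in all.

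Red blood cells carry oxygen on haemoglobin, a tetramer of alpha and beta globin chains that each hold a haem group. Immature red cells make globin mRNA, start haem synthesis with the erythroid enzyme Alas2 and place the anion exchanger Slc4a1 (band 3) in their membrane, and reticulocytes keep part of this RNA after they have left the bone marrow. Skeletal muscle fibres hold their oxygen on myoglobin instead, and a muscle sample also holds the blood of its vessels. In such bulk samples, fewer red cells and less RNA per red cell cannot be told apart. The study's methods describe blood drawn from the heart right after the run to exhaustion. They also describe a chilled solution that took surface blood off the muscle. The part of this sampling in the globin levels was not tested.

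The alpha globin rows lay close together on chromosome 10, all on the minus strand, at the positions the table lists (its genome build is not given in the sources used here). The first Hba-a2 row, ENSRNOG00000029886, spans 15602794 to 15603649. The second, ENSRNOG00000047321, spans 15589364 to 15590220, and Hba-a3, ENSRNOG00000045989, spans 15577249 to 15577977. Hbb (ENSRNOG00000058105, the beta chain) is listed on chromosome 1 from 168971274 to 168972725, Alas2 (ENSRNOG00000000167) on chromosome X from 23167696 to 23187341, and Slc4a1 (ENSRNOG00000020951) on chromosome 10 from 90296141 to 90312386. A further row of chromosome 1, LOC103694857 (168957460 to 168958836), is described in the table as haemoglobin subunit beta-2 but is no member by its symbol. Near-identical globin copies can share reads, so how reads were split between the 2 Hba-a2 rows, or between Hbb and LOC103694857, is uncertain.

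To set the abundant alpha globin gene beside its weakly expressed neighbour and the beta chain gene, the 250 bases before the start of Hbb, Hba-a2 and Hba-a3 are given from RefSeq (GRCr8). Of the 5 symbols among the members, 4 had an entry. That of Alas2 begins 4800 bases inside the gene and is not shown, and Slc4a1 had none. RefSeq has 1 window for Hba-a2, and which of the 2 rows it belongs to was not worked out. Capitals mark the letters TATAAA (the TATA box), CCAAT (the CCAAT box), CACCC (bound by factors of the Klf family) and GATAA (bound by Gata factors), each searched on both strands, and all sequences read 5′ to 3′ on the gene's strand (minus in each case).
Hbb (chr1:167663722-167663971): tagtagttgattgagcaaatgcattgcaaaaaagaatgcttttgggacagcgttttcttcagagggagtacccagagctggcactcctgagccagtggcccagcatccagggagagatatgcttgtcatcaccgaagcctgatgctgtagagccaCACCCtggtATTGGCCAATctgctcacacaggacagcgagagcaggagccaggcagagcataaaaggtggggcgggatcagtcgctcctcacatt
Hba-a2 (chr10:15829139-15829388): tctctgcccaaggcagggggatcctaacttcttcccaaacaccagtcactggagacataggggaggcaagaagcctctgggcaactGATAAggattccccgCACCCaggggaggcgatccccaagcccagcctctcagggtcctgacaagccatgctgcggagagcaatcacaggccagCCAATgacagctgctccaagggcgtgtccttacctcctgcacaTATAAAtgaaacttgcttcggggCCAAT
Hba-a3 (chr10:15816944-15817193): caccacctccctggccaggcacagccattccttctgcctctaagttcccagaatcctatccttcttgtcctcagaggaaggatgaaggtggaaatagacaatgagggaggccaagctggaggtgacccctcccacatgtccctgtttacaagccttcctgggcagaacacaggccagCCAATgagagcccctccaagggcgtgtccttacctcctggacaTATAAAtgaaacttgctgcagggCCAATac
The window of Hba-a2 held TATAAA starting 28 bases before the start, CCAAT at 71 and 5 bases, CACCC at 149 and GATAA at 164. The window of Hba-a3 held TATAAA at 30 bases and CCAAT at 73 and 7, and neither CACCC nor GATAA was found in it on either strand. In the Hbb window, CCAAT stood at 81 bases with its reverse complement next to it at 86, and CACCC at 95. Over all 33469 windows of this length, 12.9% held TATAAA, 34% CCAAT, 49.2% CACCC and 23.5% GATAA on either strand. The Hba-a2 and Hba-a3 windows were identical at 63.3% of aligned positions, against 39.5% for Hba-a2 and Hbb. These are matches of letters, not binding sites.

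In FPKM, the authors' level per transcript length and sequenced fragments, the members spanned several orders of magnitude. The mean over the 24 libraries was 402 FPKM for the first Hba-a2 row, 218 for the second, 211 for Hbb, 4.52 for Hba-a3, 1.02 for Alas2 and 0.0716 for Slc4a1. The first Hba-a2 row was above the second, Hbb above Hba-a3 and Alas2 above Slc4a1 in 24 of 24 libraries. The second Hba-a2 row was above Hbb in 17 of 24, so these neighbours were not separated beyond their spread, and Hba-a3 was above Alas2 in 19 of 24. The Hba and Hbb rows together took 0.028% ± 0.00676 of all counts in the control group (SD, n = 6), 0.0546% ± 0.0308 in the treadmill group, 0.0568% ± 0.0327 in catgut group 1 and 0.061% ± 0.0334 in catgut group 2. The commonest counts above 0 were 4 and 8, so 12 counts, the worth of 3 fragments, was taken as the limit of detection, which covers counting error only. By that limit the abundant globin rows were far above the floor everywhere, Alas2 had 36 to 220 counts, Hba-a3 was at 0 in 5 libraries, and Slc4a1 was at or under the limit in 8.

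The group means of both Hba-a2 rows and Hbb were about 2 times as high in each trained group as in the control group. The ratios of their group medians were lower, at 1.43 to 1.89, and their levels varied far more from rat to rat in the trained groups. With all libraries, none of these differences passed an adjusted p under 0.05 in edgeR, as given below. The first Hba-a2 row, an alpha chain gene, had a lowest, median and highest level of 151.7, 242.5 and 288.6 FPKM in the control group. In the treadmill group these were 225.6, 378.7 and 843.3 FPKM. In catgut group 1 they were 176.6, 441.3 and 802 FPKM. Low and high rats occurred in every trained group, and all of them overlapped with the control group. In catgut group 2 the values were 151.7, 417.2 and 884.4 FPKM, the lowest in replicate 4 and the highest in replicate 1. Of the 6 libraries in a group, 4 treadmill, 4 catgut group 1 and 5 catgut group 2 libraries lay above every control library. The coefficient of variation was 24.8% in the control group against 54.3%, 57.2% and 54.4% in the treadmill group and catgut groups 1 and 2, a difference in spread that was not tested.

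The second Hba-a2 row had 118.9 ± 31.9 FPKM in the control group (SD, n = 6), 233.1 ± 129 in the treadmill group, 249 ± 139 in catgut group 1 and 269 ± 140 in catgut group 2. For Hbb, the beta chain gene on another chromosome, the lowest, median and highest levels were 80.9, 131 and 144 FPKM in the control group and 103, 188 and 453 FPKM in the treadmill group. They were 95.6, 221 and 459 FPKM in catgut group 1 and 86.1, 228 and 496 FPKM in catgut group 2. As for the alpha chain, 4, 4 and 5 libraries of the trained groups exceeded every control library, and the highest were treadmill replicate 4 and replicate 1 of both catgut groups. Alas2, which makes the first haem precursor in red cells, had lowest, median and highest levels of 0.418, 0.705 and 0.909 FPKM in the control group and 0.523, 1.12 and 1.98 FPKM in the treadmill group. The corresponding values were 0.353, 0.7 and 2.16 FPKM in catgut group 1 and 0.499, 1.03 and 1.88 FPKM in catgut group 2. Alas2 overlapped between the control group and every trained group, with 4, 2 and 4 libraries above all controls. In catgut group 1, 2 libraries lay below all controls, and its median was close to that of the controls.

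**Figure D1:**
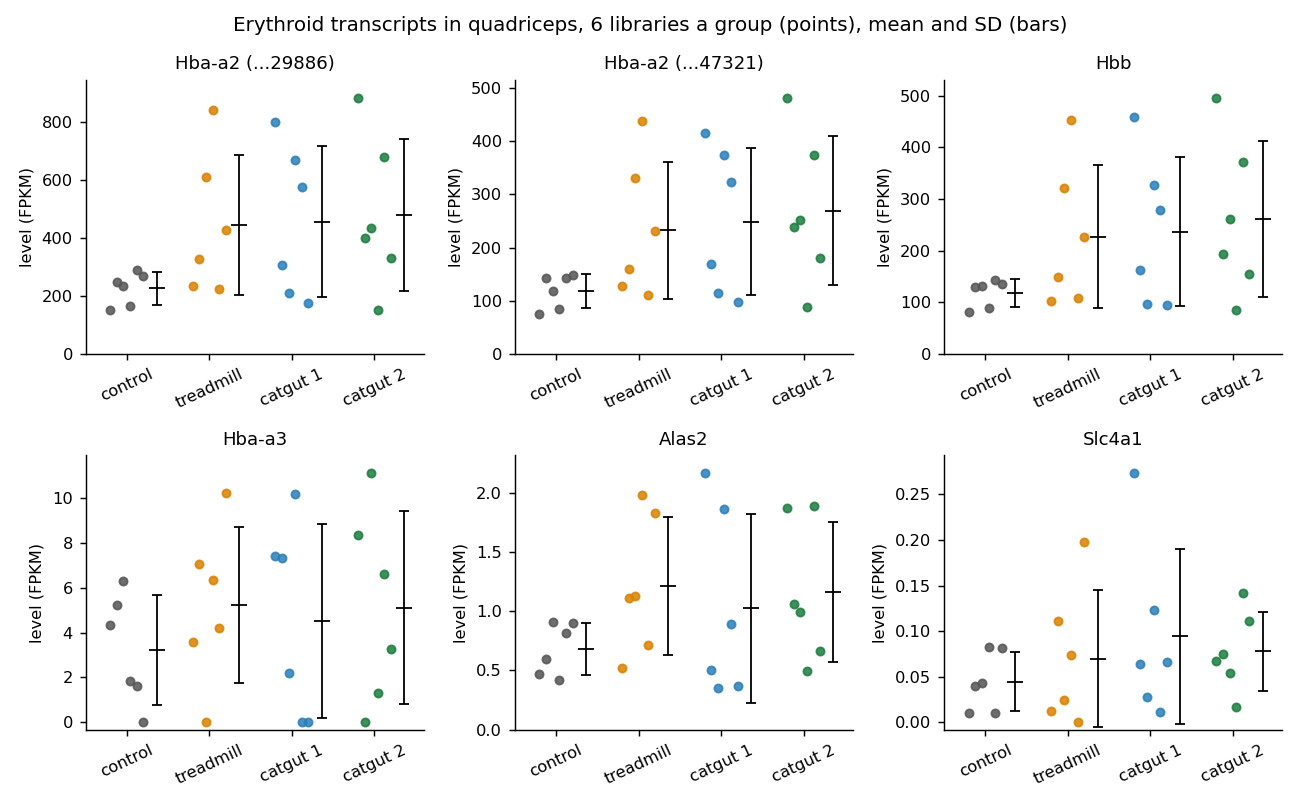
Level in FPKM (vertical axis, linear) of each of the 6 erythroid rows in the 4 groups, with 1 point per library in the order of its replicate number and the mean with its SD as a black bar. The control libraries of both Hba-a2 rows and Hbb sit close together, while each trained group runs from control-like levels to as much as 884.4 FPKM for the first Hba-a2 row.

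The treadmill and control groups ask whether training and a run to exhaustion went with a change in these transcripts. The first Hba-a2 row was higher in the treadmill group by a log2 fold change of 1.02 (SE 0.34, unadjusted p = 0.0109, adjusted p = 0.456, edgeR's quasi-likelihood test with adjustment over 14772 genes). The second Hba-a2 row differed by 1.01 (SE 0.35) and Hbb by 0.98 (SE 0.37), with adjusted p = 0.48 and 0.492 in edgeR. Alas2 differed by 0.87 (SE 0.37, unadjusted p = 0.0355, adjusted p = 0.526 in edgeR). The estimates for both chains and for the haem enzyme thus lay near one another, but none held after adjustment over all genes. At an unadjusted p under 0.05 these 4 of the 5 members tested were higher, where 4.03% of all genes tested were called higher and 9.12% in either direction. These unadjusted calls rested on single libraries in part. Without treadmill replicate 4, Hbb and Alas2 had unadjusted p = 0.0648 and 0.0965 in edgeR, and Alas2 had 0.0705, 0.0607, 0.0702 and 0.0945 without control replicate 1, 2 or 4 or treadmill replicate 6. The study's criterion for DEGs, a 1.5-fold change with p under 0.05, was applied here to the ratio of mean FPKM and edgeR's unadjusted p, and also took these 4 members and 2.85% of all genes. An adjusted p under 0.05 in edgeR was found for 0 members and 0.0542% of all genes, and DESeq2 and limma called 0 members too. The groups did overlap for each of the 5 members tested, whereas 0.447% of all genes had groups that did not. In the exact two-sided permutation test of log2(FPKM + 1), whose smallest possible p is 0.00216, p was 0.0411 for the first Hba-a2 row, 0.0519 for the second, 0.0866 for Hbb and 0.0628 for Alas2.

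In catgut group 1 the globin rows stood above the control group by a similar amount, and Alas2 by less. The log2 fold changes were 1.05 (SE 0.39) for the first Hba-a2 row, 1.1 (SE 0.39) for the second and 1.04 (SE 0.4) for Hbb, with adjusted p = 0.426, 0.408 and 0.433 in edgeR. Alas2 had 0.63 (SE 0.5, adjusted p = 0.728 in edgeR), a difference well within the spread of its libraries. At an unadjusted p under 0.05, 3 of 5 members tested were higher, against 4.78% of all genes called higher and 9.84% called in either direction. For the first Hba-a2 row and Hbb, unadjusted p in edgeR was 0.0564 and 0.069 without catgut group 1 replicate 1 and 0.0504 and 0.0522 without replicate 4. By the study's criterion 3 members and 4.62% of all genes were called, and by an adjusted p under 0.05 in edgeR, DESeq2 or limma 0 members were, against 0.0203% of all genes in edgeR. Groups that did not overlap were found for 0 members and 0.393% of all genes. The exact permutation p was 0.0844 for the first Hba-a2 row, 0.0693 for the second and 0.102 for Hbb.

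Catgut group 2 showed the highest group means of both Hba-a2 rows and Hbb. Against the control group the log2 fold changes were 1.11 (SE 0.37) for the first Hba-a2 row, 1.2 (SE 0.37) for the second and 1.17 (SE 0.38) for Hbb, with adjusted p = 0.175, 0.148 and 0.167 in edgeR. Alas2 differed by 0.78 (SE 0.38, unadjusted p = 0.0605, adjusted p = 0.329 in edgeR). At an unadjusted p under 0.05, 3 of 5 members tested were higher, where 8.04% of all genes were called higher and 16.4% in either direction. The study's criterion took 3 members and 5.95% of all genes. With an adjusted p under 0.05, edgeR called 0 members and 0.508% of all genes and limma 0 members, and groups did not overlap for 0 members and 1.09% of all genes. DESeq2 called 1, the second Hba-a2 row (adjusted p = 0.0161). Without catgut group 2 replicate 4, the lowest of its group for these 3 rows, both Hba-a2 rows and Hbb passed in edgeR (log2 fold changes 1.3, 1.39 and 1.36, adjusted p = 0.0398, 0.0339 and 0.0418). They passed without no other library. Other omissions took the log2 fold changes down to 0.77, 0.88 and 0.804, and adjusted p in edgeR up to 0.334, 0.288 and 0.32. The exact permutation p with all libraries was 0.0455, 0.026 and 0.0411 for the first and second Hba-a2 rows and Hbb. The comparisons with the control group share its 6 libraries and are not independent of one another, and the levels of both Hba-a2 rows, Hbb and Alas2 were correlated across libraries, as given further on.

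Between the trained groups, no member was separated beyond the spread. For catgut group 1 against the treadmill group the log2 fold change was 0.032 (SE 0.46) for the first Hba-a2 row, 0.056 (SE 0.49) for Hbb and -0.23 (SE 0.54) for Alas2. For catgut group 2 against the treadmill group it was 0.097 (SE 0.45), 0.18 (SE 0.49) and -0.084 (SE 0.43) for the same genes. Catgut group 2 differed from catgut group 1 by 0.066 (SE 0.48), 0.13 (SE 0.5) and 0.15 (SE 0.54). Standard errors of this size mean that even 2-fold differences could go undetected here, and more so after adjustment over all genes. An unadjusted p under 0.05 was found for 0 of 5 members tested in each of these comparisons, where 6.93%, 10.7% and 3.26% of all genes had one, and adjusted p was at least 0.941 in edgeR. For all genes the share under 0.05 after adjustment was 0.0474%, 0.237% and 0.00677%, and the share whose groups did not overlap was 0.413%, 1.04% and 0.162%, against 0 members for both. DESeq2 and limma called 0 members at an adjusted p under 0.05 in the 3 comparisons. Over all 4 groups at once, an adjusted p under 0.05 was found for 0 of 5 members in edgeR and DESeq2, against 0.379% of all genes in edgeR (unadjusted p under 0.05: 0 members, 13% of all genes), and the smallest unadjusted p among members was 0.0604, for the second Hba-a2 row.

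**Figure D2:**
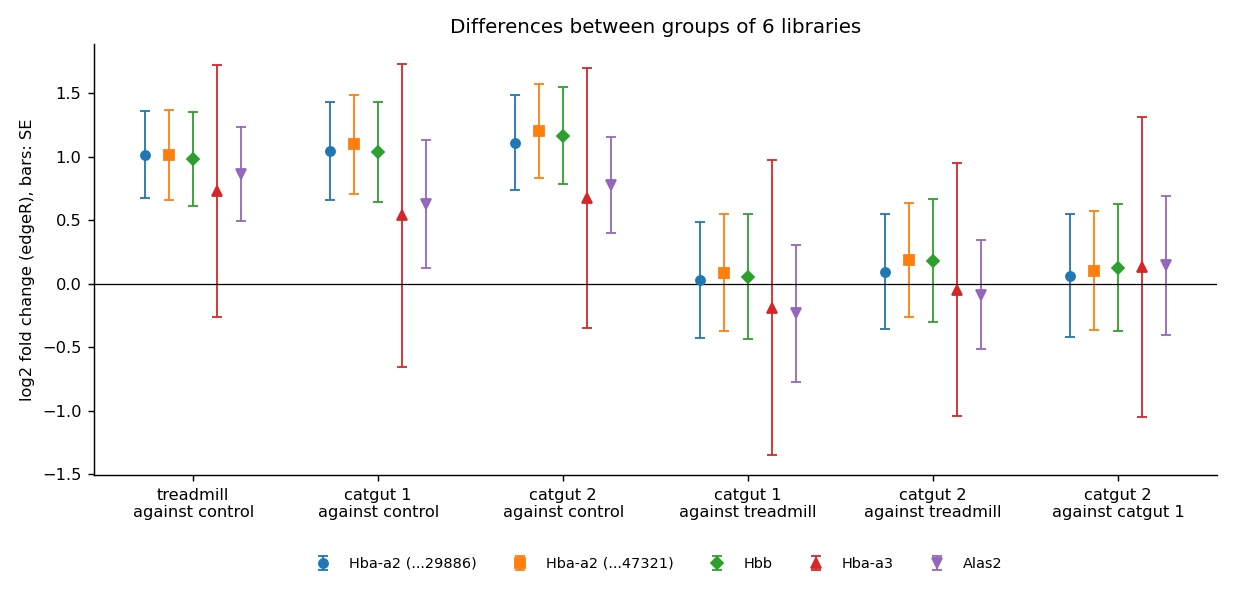
Log2 fold change in edgeR's fit (points) with its SE (bars) for the 5 members that passed the filter, in the 6 comparisons of 2 groups with 6 libraries each. Both Hba-a2 rows and Hbb lie near 1 in the comparisons with the control group and near 0 between the trained groups, and Hba-a3 has the widest bars.

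Hba-a3, an alpha-like gene beside the abundant Hba-a2 rows, followed none of this closely. Its lowest, median and highest levels were 0, 3.08 and 6.32 FPKM in the control group, 0, 5.26 and 10.2 in the treadmill group, 0, 4.76 and 10.2 in catgut group 1 and 0, 4.94 and 11.1 in catgut group 2. Every group held libraries at 0 and libraries above 6 FPKM, so all groups overlapped. The 5 libraries listed at 0 were control replicate 6, treadmill replicate 3, catgut group 1 replicates 5 and 6 and catgut group 2 replicate 2. In them the first Hba-a2 row stood at 177 to 612 FPKM, the lowest in catgut group 1 replicate 6, which was also the lowest of its group for the second Hba-a2 row and Hbb. An exact 0 in such a table can be a failed estimate, and whether the reads of these libraries went to a neighbouring copy was not tested. The log2 fold changes of Hba-a3 against the control group were 0.73 (SE 0.99), 0.54 (SE 1.19) and 0.68 (SE 1.03) in the treadmill group and catgut groups 1 and 2, with adjusted p = 0.854, 0.926 and 0.799 in edgeR.

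Slc4a1, the band 3 anion exchanger of the red cell membrane, was too low for the filter on mean FPKM and was compared mainly by the exact permutation test. Its lowest and highest counts were 4 and 30 among controls, 0 and 58 after treadmill training, 4 and 76 for catgut group 1, and 6 and 45 for catgut group 2. The mean level was 0.0445 ± 0.0323 FPKM in the control group (SD, n = 6), 0.0698 ± 0.0752 in the treadmill group, 0.0942 ± 0.096 in catgut group 1 and 0.0778 ± 0.0436 in catgut group 2. The highest library was catgut group 1 replicate 1, which was also the highest of its group for both Hba-a2 rows, Hbb and Alas2. The groups overlapped, and the exact permutation p against the control group was 0.517, 0.268 and 0.154 for the treadmill group and catgut groups 1 and 2. In edgeR without the filter, its log2 fold changes against the control group were 0.7 (SE 0.93), 1.16 (SE 0.75) and 0.82 (SE 0.62), with adjusted p = 0.878, 0.592 and 0.562. A change in Slc4a1 was not detectable at this depth.

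Within a library the abundant globin rows kept nearly fixed proportions, whatever their level. The first Hba-a2 row was 1.86 ± 0.104 times the second (SD, n = 24, range 1.68 to 2.07), and Hbb was 0.518 ± 0.0415 times the first Hba-a2 row. How reads were split between the 2 Hba-a2 rows is uncertain, as said above, and the part of that split in their ratio was not tested. The alpha rows summed were 2 ± 0.143 times the beta rows summed, LOC103694857 included (range 1.8 to 2.34). Their levels varied by over 50% in the trained groups, while these ratios varied by 5.59%, 8.02% and 7.13%. The ratio of the first to the second Hba-a2 row was 1.92 ± 0.104 in the control group and 1.92 ± 0.0971 in the treadmill group, against 1.83 ± 0.0562 in catgut group 1 and 1.77 ± 0.0699 in catgut group 2 (n = 6 each). On the log2 scale the second row relative to the first was 0.12 higher in catgut group 2 than after treadmill training alone (exact permutation p = 0.00649, adjusted p = 0.195 over 30 such tests). This small shift did not hold after adjustment, and the groups overlapped.

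Alas2 moved with the globins but not in a fixed proportion. Per 1000 FPKM of Hbb there were 5.71 ± 0.942 FPKM of Alas2 in the control group, 5.86 ± 1.82 in the treadmill group, 4.03 ± 0.996 in catgut group 1 and 4.7 ± 0.869 in catgut group 2 (SD, n = 6 each). Catgut group 1 had the lowest proportion, and its libraries overlapped with those of the other groups. Relative to the first Hba-a2 row, Alas2 was lower in catgut group 1 than in the control group by 0.63 on the log2(FPKM + 1) scale and by 0.56 with no pseudocount, a setting added after the data were seen (exact permutation p = 0.0195 for both, adjusted p = 0.195 and 0.117). Against the control group, the treadmill group differed by -0.48 with the pseudocount but by -0.1 without it (exact permutation p = 0.0563 and 0.636), since a pseudocount of 1 compresses a gene near 1 FPKM. With all libraries, no member's level relative to the first Hba-a2 row differed between 2 groups at an adjusted p under 0.05 in the exact permutation test. In catgut group 2 against the control group, Alas2 relative to the first Hba-a2 row differed by -0.59 with the pseudocount and by -0.26 without it (exact permutation p = 0.0368 and 0.123). For Slc4a1 this scale is void, since a pseudocount of 1 holds so low a gene near 0 and its relative level then mirrors that of Hba-a2.

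**Figure D3:**
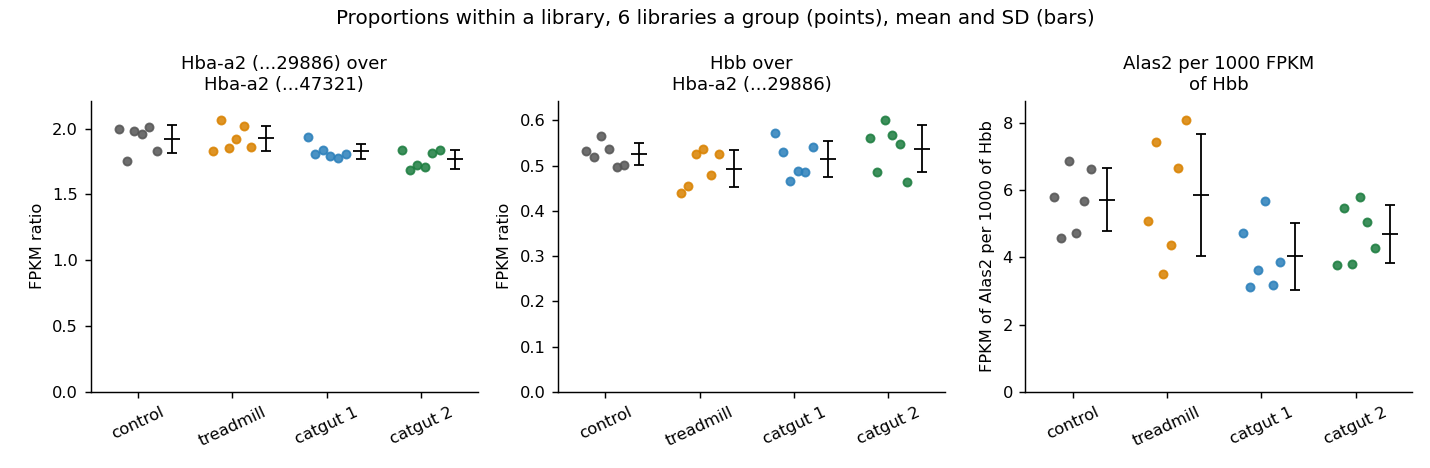
Ratios of FPKM within a library (vertical axes from 0) for the 2 Hba-a2 rows, for Hbb over the first Hba-a2 row and for Alas2 per 1000 FPKM of Hbb, with 1 point per library and the mean with its SD as a black bar. The globin ratios stay within 1.68 to 2.07 and 0.44 to 0.601, while the proportion of Alas2 ranges from 3.12 to 8.09.

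Across the 24 libraries, the level of 1 abundant member predicted that of the others. The 2 Hba-a2 rows, which can share reads, had Pearson r = 0.995 and Spearman rho = 0.995 on log2(FPKM + 1). The first Hba-a2 row and Hbb had r = 0.991 and rho = 0.995. The permutation p was 1e-05 for each, the smallest that 100000 resamples can give (adjusted p = 2.5e-05 over 15 pairs). Hbb and Alas2 had r = 0.897 and rho = 0.891, also with permutation p = 1e-05. Without the 2 libraries farthest from the median of Hbb, replicate 1 of each catgut group, r was 0.866, and within single groups (control, treadmill, catgut 1, catgut 2) it was 0.87, 0.836, 0.942 and 0.949 (n = 6 each). The relation therefore stood inside the untrained group as well as inside each trained group. Hba-a3 had r = 0.277 with the first Hba-a2 row (permutation p = 0.192, adjusted p = 0.205), and r was -0.314 within the control group. Without catgut group 2 replicate 1 and treadmill replicate 4 it was 0.182. By rank this pair passed the threshold, with rho = 0.438 (permutation p = 0.0335, adjusted p = 0.0387). Hba-a3 had rho = 0.452 with Hbb and 0.484 with Alas2 (adjusted permutation p = 0.0348 and 0.0251). Slc4a1 had r = 0.504 with Hbb (rho = 0.493, permutation p = 0.00982, adjusted p = 0.0184), and r was 0.0033 within the control group. Without replicate 1 of each catgut group r was 0.419 (permutation p = 0.0532), so the relation with Hbb rested partly on those libraries. With the first and second Hba-a2 rows, Slc4a1 had r = 0.489 and 0.477. Without catgut group 2 replicate 1 and treadmill replicate 4 these were higher, at 0.564 and 0.545 (permutation p = 0.00524 and 0.00735). Alas2 and Slc4a1 had r = 0.654 (rho = 0.54, permutation p = 0.00043, adjusted p = 0.000921), r = 0.605 without catgut group 1 replicate 1 and treadmill replicate 4, and r = 0.0138 within the control group.

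**Figure D4:**
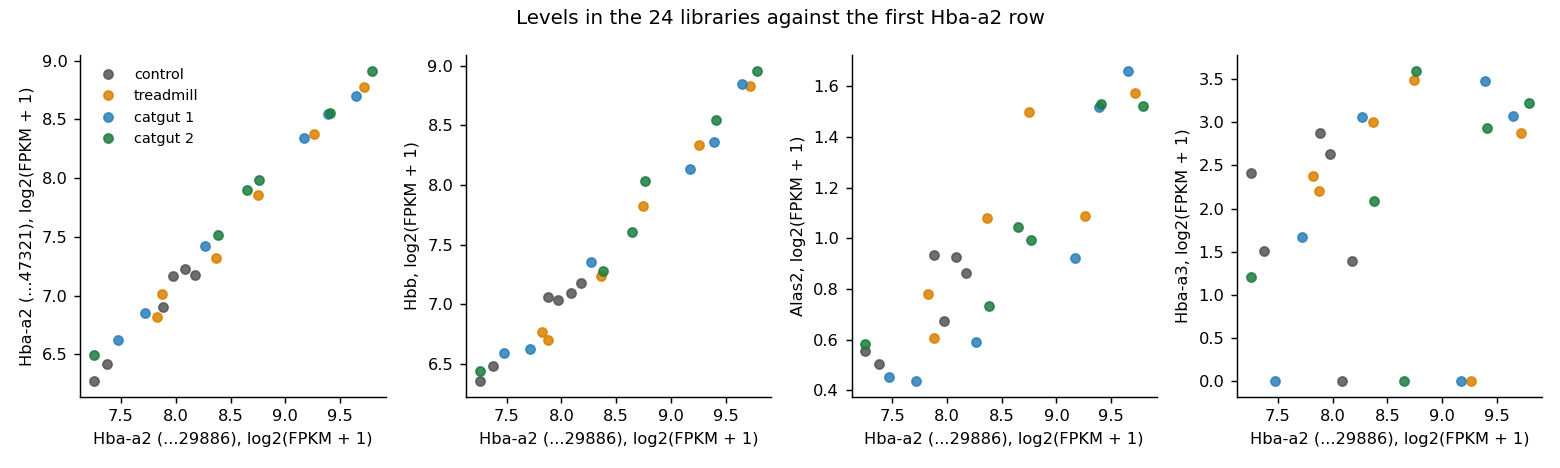
Levels on the log2(FPKM + 1) scale in each of the 24 libraries (points, by group), with the first Hba-a2 row on the horizontal axes and the second Hba-a2 row, Hbb, Alas2 and Hba-a3 on the vertical axes. The points of the second Hba-a2 row and Hbb fall on a line (r = 0.995 and 0.991), those of Alas2 spread around one (r = 0.89), and 5 libraries lie at 0 for Hba-a3.

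The labelled tissue was borne out by its markers, with 66892.6 to 92431.1 FPKM summed over the 9 skeletal muscle rows in the table. Among them, the slow fibre genes Myh7 and Tnnt1 had r = 0.569 and 0.574 with the first Hba-a2 row, and the fast fibre genes Myh1 and Tnnt3 had r = -0.646 and -0.51. Myh7 averaged 36.1 ± 55.7, 68.7 ± 65.7, 145 ± 142 and 155 ± 142 FPKM (control, treadmill, catgut 1, catgut 2, SD, n = 6 each). Myh1 averaged 3504.2 ± 446, 2784.9 ± 408, 2848.7 ± 537 and 2490.6 ± 527 FPKM. None of the 9 rows passed an adjusted p under 0.05 against the control group in edgeR. At an unadjusted p under 0.05, 1 was higher and 3 were lower in catgut group 2, and 0 in the other comparisons with the control group. The higher one was myoglobin (Mb, log2 fold change 0.905, unadjusted p = 0.00366 in edgeR). Myh7 had 2.12 in that comparison (SE 1.21, unadjusted p = 0.104 in edgeR). The part of these fibre genes in the globin differences was not tested. Of the markers listed for red cells, Epb42 and Gata1, a membrane protein and the main erythroid transcription factor, never exceeded 12 counts, and neither did Rhag, Ermap, Gfi1b, Trim58 and Tspo2. Klf1, an activator of beta globin, averaged 0.159 FPKM, exceeded 12 counts in 15 libraries and had r = 0.0773 with the first Hba-a2 row. Ahsp, the chaperone of free alpha chains, averaged 0.377 FPKM, exceeded the limit in 12 libraries and had r = 0.674. Both r are descriptions over 24 libraries. Klf1 averaged 0.221, 0.101, 0.188 and 0.127 FPKM (control, treadmill, catgut 1, catgut 2), and Ahsp 0.259, 0.42, 0.378 and 0.449 FPKM. Other genes of the red cell lists exceeded 12 counts in all 24 libraries, among them the membrane and skeleton genes Gypc (30.9 FPKM), Sptb (26.4), Ank1 (8.81) and Epb41 (8.06) and the transferrin receptor Tfrc (9.33), which are also expressed outside red cells. Their r with the first Hba-a2 row was -0.362, -0.631, -0.499, -0.594 and -0.145, in the same order. Further genes of these lists, also above 12 counts in all 24 libraries, had r of both signs. The value was 0.541 for the membrane gene Aqp1, and 0.552 and 0.383 for the transcription factor genes Zfpm1 and Tal1. For Tmod1 and Xk, also of the membrane and skeleton list, r was -0.564 and -0.33.

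The other genes of the pathway gave mixed values. Of the 13 haem synthesis genes, all tested, Alas2 included, 0 passed an adjusted p under 0.05 in any of the 6 comparisons in edgeR, and their median log2 fold change was 0.0135, 0.0385 and 0.0586 in the treadmill group and catgut groups 1 and 2 against the control group. At an unadjusted p under 0.05, 1, 0 and 1 of them were higher and 0 lower in these 3 comparisons, and the 1 in the treadmill group was Alas2 itself. Across the 24 libraries, r with the first Hba-a2 row was 0.73 for Tmem14c (a mitochondrial membrane protein used in haem synthesis) and 0.524 for Alad, but -0.586 for Cpox and -0.621 for Fech, as descriptions. Fech, which inserts iron into haem, averaged 36.4, 36, 35 and 33 FPKM (control, treadmill, catgut 1, catgut 2), and Alas1, the housekeeping counterpart of Alas2, 24.7, 26.8, 22.6 and 28 FPKM. Of 17 rows for the red cell membrane and its skeleton, 8 were tested, and 1 passed in 1 comparison. It was Aqp1, the water channel of red cells and also of capillary endothelium, with a log2 fold change of 0.82 between catgut group 2 and the controls (adjusted p = 0.0417 in edgeR, with 145 FPKM in the control group and 254 in catgut group 2). Of 11 erythroid transcription factors and receptors, 8 were tested and 0 passed in edgeR, and of 12 reticulocyte genes 8 were tested and 0 passed. Prdx2, an abundant red cell antioxidant that muscle also expresses, averaged 144, 167, 169 and 187 FPKM in the 4 groups, and Bpgm, which makes the regulator of oxygen release from haemoglobin, 84, 73.5, 80.8 and 80.9 FPKM.

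Markers of other cell types gave these values beside the globins, and their part in the globin differences was not tested. The sums of the platelet list spanned 4.25 to 10.9 FPKM among controls, 2.71 to 25.3 after treadmill training, 4.26 to 8.14 for catgut group 1 and 7.6 to 16 for catgut group 2. Neutrophil markers summed to 0.891 to 6.47, 1.35 to 8.39, 2.02 to 5.18 and 3.02 to 4.73 FPKM, and lymphocyte markers to 1.28 to 5.52, 2.08 to 12.3, 2.31 to 4.51 and 2.31 to 6.5 FPKM in the same order. The ranges of the platelet, neutrophil and lymphocyte lists overlapped between the groups. Most of the platelet sum came from Pf4 and most of the lymphocyte sum from Cd4 (8.4 and 2.75 FPKM on average). The sums of the macrophage list were 13.1 to 61.3, 15.4 to 127, 26.3 to 51 and 14.7 to 65.7 FPKM, and those of the endothelial list 60.5 to 126, 60.5 to 109, 56.7 to 119 and 69.4 to 109 FPKM. The Pearson r of these sums with the first Hba-a2 row was 0.0974 for platelets, 0.327 for neutrophils, -0.0677 for lymphocytes, -0.0396 for macrophages and 0.305 for endothelium, each with an adjusted permutation p of at least 0.374. Single markers also differed from the control group at an unadjusted p under 0.05 in edgeR. In the treadmill group these were the endothelial receptor Kdr (log2 fold change 0.66, adjusted p = 0.354 in edgeR, r = 0.576 with the first Hba-a2 row) and the neutrophil gene S100a9 (1.02, adjusted p = 0.52, r = 0.128). In catgut group 2 they included the endothelial receptor Flt1 (0.72, adjusted p = 0.117 in edgeR, r = 0.567), S100a9 (0.67, adjusted p = 0.279) and the platelet tubulin Tubb1 (1.71, adjusted p = 0.271, r = 0.346). Of the 7 endothelial rows, 1, 1 and 4 were higher at an unadjusted p under 0.05 in the treadmill group and catgut groups 1 and 2. Of all genes tested, 4.03%, 4.78% and 8.04% were called higher in these comparisons. The other endothelial rows had r of 0.396 (Cdh5), 0.248 (Vwf), 0.199 (Egfl7), 0.0364 (Emcn) and -0.0393 (Tek) with the first Hba-a2 row. Liver markers reached 243 FPKM in control replicate 2 and 365 FPKM in treadmill replicate 3, but were at most 0.862 FPKM in the catgut groups (r = 0.0355 with the first Hba-a2 row, rho = -0.13, adjusted permutation p = 0.873). When the 4 libraries over 5 FPKM of liver markers were left out (added with the data in view), the fit gave 1.03 for the first Hba-a2 row and 1 for Hbb in the treadmill group against the control group (log2 fold change, adjusted p = 0.563 and 0.583, unadjusted p = 0.0501 and 0.0723 in edgeR), and 0.67 for Alas2 (unadjusted p = 0.21).

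Of 10 such lists, 2 had a relation with the first Hba-a2 row that passed adjustment. The haem and iron handling list, whose sum is mostly myoglobin (Mb, the oxygen store of muscle fibres), had r = 0.689 (rho = 0.702, permutation p = 0.00025, adjusted p = 0.0025) and r = 0.609 without catgut group 2 replicate 1 and treadmill replicate 4. Within single groups, in the order used above, r was 0.103, 0.853, 0.605 and 0.685. Mb itself averaged 5699.6 FPKM in the control group, 7313.9 in the treadmill group, 7984.5 in catgut group 1 and 10401.9 in catgut group 2. The list of reticulocyte and late erythroid genes ran the other way, with r = -0.577 (rho = -0.602, permutation p = 0.00314, adjusted p = 0.0157), r = -0.462 without the same libraries, and -0.378, -0.55, -0.815 and -0.436 within the groups. Its sum came mostly from Tmcc2, Bnip3l and Fbxo7 (15.8, 15 and 10.4 FPKM), which are not restricted to red cells, while its red cell genes Trim58, Tspo2 and Hemgn stayed below 0.1 FPKM on average.

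Among 10475 genes with a mean of at least 1 FPKM, LOC103694857, the beta-2 row, was the one most like Hbb (r = 0.991), and its levels were 62.2 ± 15, 115 ± 66.6, 116 ± 68.1 and 125 ± 67 FPKM in this order of groups (SD, n = 6 each). It was 0.506 ± 0.0419 times Hbb over the 24 libraries, and how reads were split between them is uncertain, as said above. Rows with only a locus number and the globin rows apart, the 5 genes most like the first Hba-a2 row were Mcrip2 (r = 0.805), Dll4 (0.787), Glrx5 (0.786), Ndufab1 (0.774) and Cox5b (0.77). Mcrip2 is listed on the same chromosome, 367054 bases from that row. The same first 2 genes led for the second Hba-a2 row and for Hbb, and Cox7a1 and Cox4i1 completed their lists. For Hba-a3 the closest was Hagh (r = 0.76), an enzyme of methylglyoxal removal, 1346734 bases away on chromosome 10, followed by Rsl1d1l1, Rplp0, Mrpl28 and Lyrm9 (r of 0.632 to 0.594). For Alas2 it was Tmem192 (r = 0.654), then Ndufb10, Scand1, Mrpl38 and Cluh. These r values are descriptions over 24 libraries that share their depth and groups.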

How the data were processed

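The authors sequenced poly(A) RNA of the quadriceps, and the deposited table gives whole-number counts and FPKM for 21067 genes in 24 libraries. The submitters' processing notes name HISAT2 2.0 and StringTie 1.3.0, with no role given here, and the genome build is not given in the sources used here. The FPKM values, scaled to transcript length and to each library's fragments, were computed by the authors before they deposited the table. The commonest counts above 0 are 4 and 8, so the tests were also run on counts divided by 4. Totals were 45945938 to 78278080 counts per library. Groups came from the sample labels. Replicates are separate rats in the study's methods.

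Counts were tested as deposited with edgeR 4.0.16 in R 4.3.3 (TMM, quasi-likelihood test, both groups of a comparison fitted alone, two-sided) over the 14772 genes with a mean of at least 0.1 FPKM, with Benjamini-Hochberg adjustment over all of them. Of the 6 members, 5 passed this filter. Each SE is the absolute log2 fold change over the square root of F. Single members and within-library differences were compared on log2(FPKM + 1) by an exact permutation test over all 924 arrangements of 12 libraries. Relations across libraries used 100000 permutations. The study's criterion was counted beside adjusted p. Alternatives were no filter, a mean of at least 1 FPKM, median-ratio scaling, globin rows left out of library sizes, DESeq2 1.42.0, limma 3.58.1 with a pseudocount of 1 or 0.1, 1 fit over all groups, the replicate number as a block, Y-linked transcripts as a covariate, counts divided by 4 and each library left out. The steps were tested on simulated data. Every member is named, list genes are named where they passed the test or were highest, and for likeness the 5 genes of highest r are named. All other list genes were named after their values were seen, among them the red cell markers near 0 and the fibre, endothelial, neutrophil and platelet genes. Members, gene lists and tests were chosen with earlier results of these data known. The summed Y-linked level stood in for sex, which the labels do not give per library. Promoter windows came from RefSeq (GRCr8), 4 of 5 symbols matched, and were aligned with Biopython 1.88. Figures were drawn with matplotlib 3.10.9.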

Additional observations from a re-analysis of the deposited data

How the results depend on the processing

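The direction of both Hba-a2 rows, Hbb and Alas2 against the control group was kept in each of the 3 trained groups under all alternatives run, and their calls at an adjusted p under 0.05 changed only as follows. In catgut group 2 against the control group, DESeq2 gave 1.21 for the second Hba-a2 row (adjusted p = 0.0161), and leaving out 1 library gave log2 fold changes of 0.77 to 1.3 (first Hba-a2 row), 0.88 to 1.39 (second) and 0.804 to 1.36 (Hbb), past the threshold without catgut group 2 replicate 4 only. Between trained groups the log2 fold changes changed sign with single libraries, except for Alas2 in catgut group 1 against the treadmill group. That one stayed negative, at -0.613 to -0.0286 with 1 library left out. For catgut group 1 against the treadmill group, leaving out 1 library gave -0.23 to 0.33 (the first Hba-a2 row), -0.14 to 0.38 (the second), -0.27 to 0.39 (Hbb), -0.66 to 0.19 (Hba-a3). For catgut group 2 against the treadmill group, leaving out 1 library gave -0.24 to 0.401 (the first Hba-a2 row), -0.13 to 0.49 (the second), -0.18 to 0.52 (Hbb), -0.36 to 0.32 (Hba-a3), -0.33 to 0.13 (Alas2). For catgut group 2 against catgut group 1, leaving out 1 library gave -0.28 to 0.33 (the first Hba-a2 row), -0.22 to 0.33 (the second), -0.24 to 0.46 (Hbb), -0.18 to 0.61 (Hba-a3), -0.11 to 0.53 (Alas2). Other sign changes, all with adjusted p over 0.9 in edgeR or limma, were Alas2 in catgut group 2 against the treadmill group with the Y-linked covariate (0.022) or without the libraries over 5 FPKM of liver markers (0.0705), Hba-a3 in the same comparison (0.19 and 0.076), the first Hba-a2 row in catgut group 1 against the treadmill group in limma (-0.021 and -0.022 with a pseudocount of 1 and 0.1), and Hba-a3 in catgut group 1 against the control group in limma with 0.1 (-0.33).

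The replicate numbers did not pair the libraries. Same-numbered libraries had correlations of -0.492 to 0.283 over 36 pairs, 9 of them over 0.1, and 2 of 24 libraries correlated best with their own number. With the replicate number as a block, the first Hba-a2 row and Hbb in catgut group 1 against the treadmill group came to -0.058 and -0.0075 and Hba-a3 in catgut group 1 against the control group to -0.19, and no member passed an adjusted p under 0.05 in edgeR. With the block, calls at the unadjusted threshold were lost in edgeR for the second Hba-a2 row, Hbb and Alas2 in the treadmill group against control (0.0553, 0.0796 and 0.0731) and for both Hba-a2 rows and Hbb in catgut group 1 against control (0.124, 0.104 and 0.144). Unadjusted calls were also lost in limma for Hbb in the treadmill group (0.0573 with 0.1) and in catgut group 1 (0.0521 with 1, 0.0618 with 0.1), for the first Hba-a2 row in catgut group 1 (0.0505 with 0.1), and for Alas2 in the treadmill group in 1 edgeR fit over all groups (0.0888). Alas2 in catgut group 2 gained one in DESeq2 (0.0443), with the Y-linked covariate (0.0416) and without control replicate 6 or catgut group 2 replicate 4 or 6 (0.0201 to 0.0487).

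For levels relative to the first Hba-a2 row (log2), leaving out 1 library gave, for Alas2, -0.15 to 0.17 (catgut group 2 against 1), -0.31 to 0.0126 (catgut group 2 against treadmill) and -0.79 to -0.47 (catgut group 2 against control, past the threshold without catgut group 2 replicate 4 with the pseudocount of 1, adjusted p = 0.0325 in the exact permutation test). For Hba-a3 it gave -1.01 to 0.0659, -0.82 to 0.197, -0.29 to 0.62 and -0.74 to 0.27 (catgut group 1 and catgut group 2 against treadmill, catgut group 2 against 1, treadmill against control). For Slc4a1 it gave -0.17 to 0.22, -0.34 to 0.16, -0.39 to 0.11 and -1.15 to -0.65 (the same first 3 comparisons, then catgut group 2 against control), values that mirror Hba-a2 at this pseudocount, and with a pseudocount of 0.1 catgut group 2 against treadmill was 0.063. The second Hba-a2 row gave -0.0201 to 0.0194 (treadmill against control) and Hbb -0.00672 to 0.0677 (catgut group 2 against control). Slc4a1 alone (difference of log2(FPKM + 1)) gave -0.0136 to 0.0641, -0.00626 to 0.0457, -0.0403 to 0.0263 and -0.000858 to 0.0511 in the order given for Hba-a3.

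Within groups of 6, several correlations were weaker or turned. In the control and treadmill groups, r with Hba-a3 was -0.31 and -0.18 (first Hba-a2 row), -0.32 and -0.21 (second) and -0.21 and -0.18 (Hbb), and in the control group -0.27 (Alas2) and -0.52 (Slc4a1). Slc4a1 (control, treadmill, catgut 1, catgut 2) had -0.0068, 0.29, 0.59 and 0.58 with the first Hba-a2 row, 0.068, 0.28, 0.56 and 0.56 with the second, 0.0033, 0.305, 0.66 and 0.49 with Hbb, and 0.014, 0.73 and 0.53 with Alas2 (control, treadmill, catgut 2). The second Hba-a2 row with Alas2 had 0.77 and 0.803 (control, treadmill). Without the 2 farthest libraries, Hbb with Slc4a1 had 0.42 and Hba-a3 with Alas2 0.51, and with group means removed Hba-a3 with Slc4a1 had 0.402.

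Slc4a1 was at or under 12 counts in 8 libraries, and the abundant globin rows varied by over 50% between rats of a trained group. Why Hba-a3 was listed at 0 in 5 libraries was not tested.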
